A study of Mus musculus with 4 samples.

Results

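Integrins and laminins are the receptor and matrix sides of cell attachment to the basement membrane, and 38 genes of these families were read here: 27 integrin chains (18 alpha and 9 beta) and 11 laminin chains. They were taken by symbol, as every gene named Itga or Itgb followed by its chain, and every laminin alpha, beta or gamma gene, out of 28545 genes in each table. Integrin-binding proteins with similar symbols were left out. Polyadenylated RNA was sequenced from mouse uterus labelled endometrium, its inner lining. The design text gives proestrus, the cycle phase before ovulation, for all the mice, speaks of uterine tissue as a whole and calls the groups knockout and WT. There were 2 libraries titled SMAD7fl/fl, with loxP-flanked Smad7 and the treatment tag blank (called floxed 1 and floxed 2 here), and 2 titled SMAD7 Cre+/-, with the tag CKO (called Cre 1 and Cre 2). Labels of all 4 libraries describe how the loxP sites were placed, by injection of a guide RNA, a donor vector and Cas9 mRNA into zygotes. The labels do not state the Cre line, the cells in which it acts, the animals' age and strain, or whether each library is a separate animal. What the p-values measure is thus the library-to-library spread, and this may be technical.

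An integrin is a heterodimer of 1 alpha and 1 beta chain that spans the plasma membrane, binds matrix or other cells outside and links to actin through talin and kindlin inside. A laminin is a trimer of 1 alpha, 1 beta and 1 gamma chain that self-assembles into the sheet on which epithelial, endothelial and muscle cells sit. Several alpha chains pair with Itgb1 alone, so its level is shared among many receptors, while Itga6 pairs with Itgb1 or Itgb4, and Itgav pairs with Itgb1, Itgb3, Itgb5, Itgb6 or Itgb8. In uterus, epithelial integrins such as alpha-v beta-3 are known for their part in embryo attachment, and alpha-v beta-6 and alpha-v beta-8 are known for releasing TGF-beta from its latent complex.

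Smad7, the inhibitory SMAD that dampens TGF-beta signalling, checks the labels. Its level was 7.79 and 7.81 FPKM in floxed 1 and floxed 2, against 49.9 in Cre 1 and 33.9 in Cre 2, so it was higher where a deletion is labelled (log2 fold change 2.42 ± 0.28 SE, adjusted p 0.0982 in edgeR). FPKM is a gene's count scaled by its exon length and by the total count of its library, so that levels of different genes can be compared. Every direction below therefore compares libraries by label and is not that of a verified loss of Smad7. Total counts ran from 17444368 to 22950532. The floxed pair was less alike than the Cre pair, with a biological coefficient of variation (the spread of a gene beyond counting error) of 0.404 against 0.163. Between a floxed and a Cre library it ran from 0.391 to 0.426, so the floxed libraries differed from each other about as much as from the Cre libraries. Markers of the labelled tissue were present, with 8 stromal genes summing to 760 to 1217 FPKM and 9 epithelial genes to 912 to 1525, but 9 smooth muscle genes summed to 1573 to 1855 in the floxed pair and 2635 to 2940 in the Cre pair.

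Among the integrins Itgb1 was by far the most abundant, with a mean of 183 FPKM over the 4 libraries, followed by Itgb5 (50.7), Itga6 (28.2), Itga5 (20.6) and Itgav (12.7). Itgb1 alone made up 56.6% to 72.1% of the summed FPKM of the beta chains. Among the laminins Lamc1 (36.2), Lamb2 (31.0), Lama5 (25.4) and Lamb1 (25.0) led, the chains of the trimers known as laminin-511 and laminin-521. Neighbours in these orders often lay within the spread of the libraries: Lamc1 ran from 14.2 to 52.0 FPKM and Lamb2 from 22.8 to 38.4. At the low end Itga10, Itgad, Itgb2l and Lama1 had a mean below 1 FPKM. These 4 were set aside from the test, which left 34 members. The member genes together took 0.405% and 0.256% of the counts in floxed 1 and floxed 2, and 0.399% and 0.377% in Cre 1 and Cre 2. Floxed 2 thus had the lowest share.

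**Figure D1:**
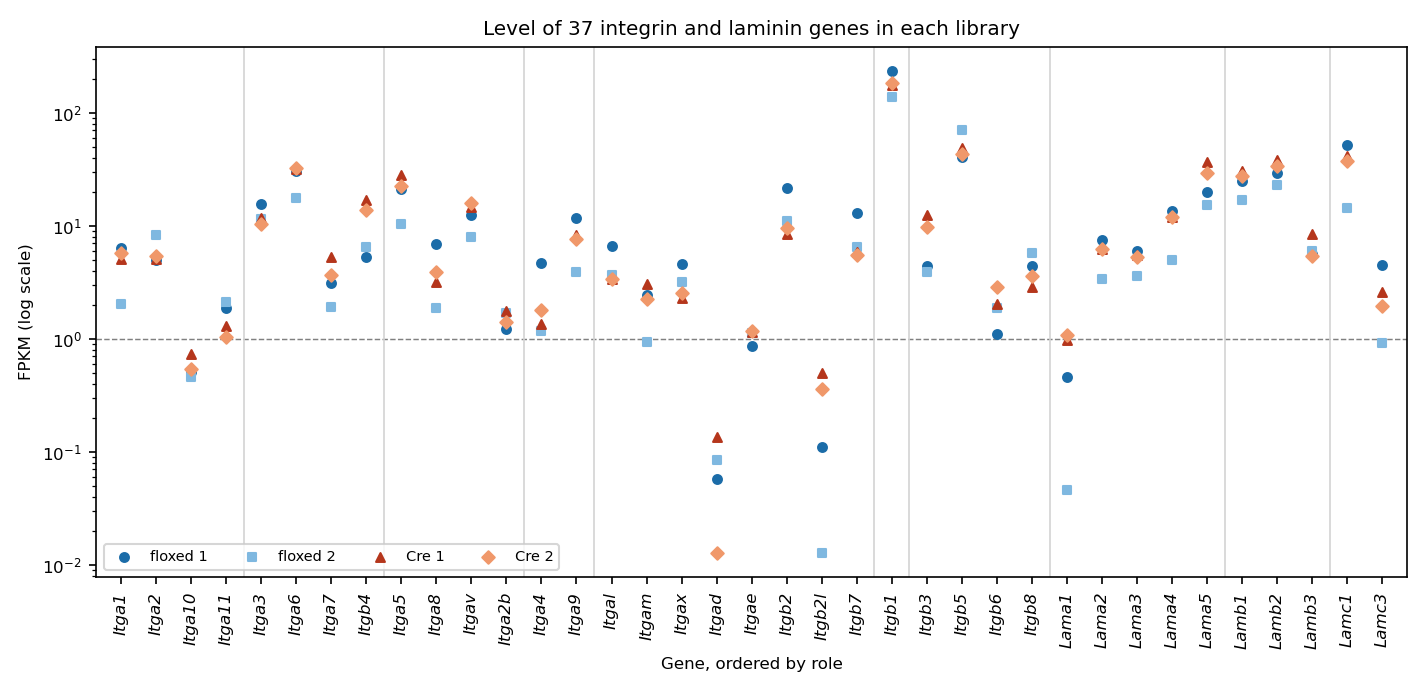
FPKM (log scale) of 37 of the 38 genes in each of the 4 libraries, ordered by role, with vertical lines between roles and a dashed line at 1 FPKM. Itgb1 stands highest, at 139 to 234 FPKM, and floxed 2 (light blue squares) lies below the other 3 libraries for Itga1, Itga8, Lama4 and Lamc1.

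No member passed the test. edgeR's quasi-likelihood test with Benjamini-Hochberg adjustment called 0 of 34 members at an adjusted p under 0.05 (lowest 0.111, for Itgb3), as it called 0% of all 13513 genes tested. At an unadjusted p under 0.05, 4 members were higher in the libraries labelled Cre (Itgb3, Itgb4, Lama5 and Itga7) and 1 was lower (Itgb8), which is 14.7% of the members against 13.9% of all genes tested. By direction the background was 7.3% higher and 6.58% lower. The count is thus near the background. Groups did not overlap, on counts scaled to library size (CPM), in 18 of 34 members (52.9%), 11 higher and 7 lower, against 48.3% of all genes (24.7% higher and 23.6% lower). The median log2 fold change was -0.00053 over 24 tested integrins and 0.27 over 10 tested laminins, beside -0.033 over all genes tested.

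These counts turned on single libraries. Without floxed replicate 1, 18 members were higher and 4 lower by unadjusted p, where 22.3% and 19.4% of all genes were, and 18 and 3 by adjusted p (17.5% and 13.9% of all genes). Without floxed replicate 2, 5 were higher and 9 lower by unadjusted p (15.4% and 15.7% of all genes), and 4 and 7 by adjusted p (10.4% and 11.4%). Without Cre replicate 1 only Itgb3 and Itgb4 were higher and 0 members lower by unadjusted p (2.7% and 2.17% of all genes), and without Cre replicate 2 the same (2.58% and 2%). In each of these fits the lone library is assumed to vary like the other pair. The laminin median was 0.78 without floxed replicate 1 and -0.061 without floxed replicate 2. DESeq2 on the same counts called 3 members higher, Itgb3, Itgb4 and Lama5, and 0 lower, at an adjusted p under 0.05, or 8.82% of members against 6.24% of all genes (3.24% higher and 3% lower). With no filter on low genes 4 members were higher and 2 lower by adjusted p (3.63% and 3.41% of all genes), and 7 and 5 by unadjusted p (7.92% and 7.41%). With genes of a mean of at least 5 FPKM alone, 3 of 21 members were higher and 0 lower by unadjusted p (6.43% and 6.18%). In limma on log2(FPKM + 1) and on log2(FPKM + 0.1), 0 members were lower by unadjusted p (5.96% and 6.09%).

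**Figure D2:**
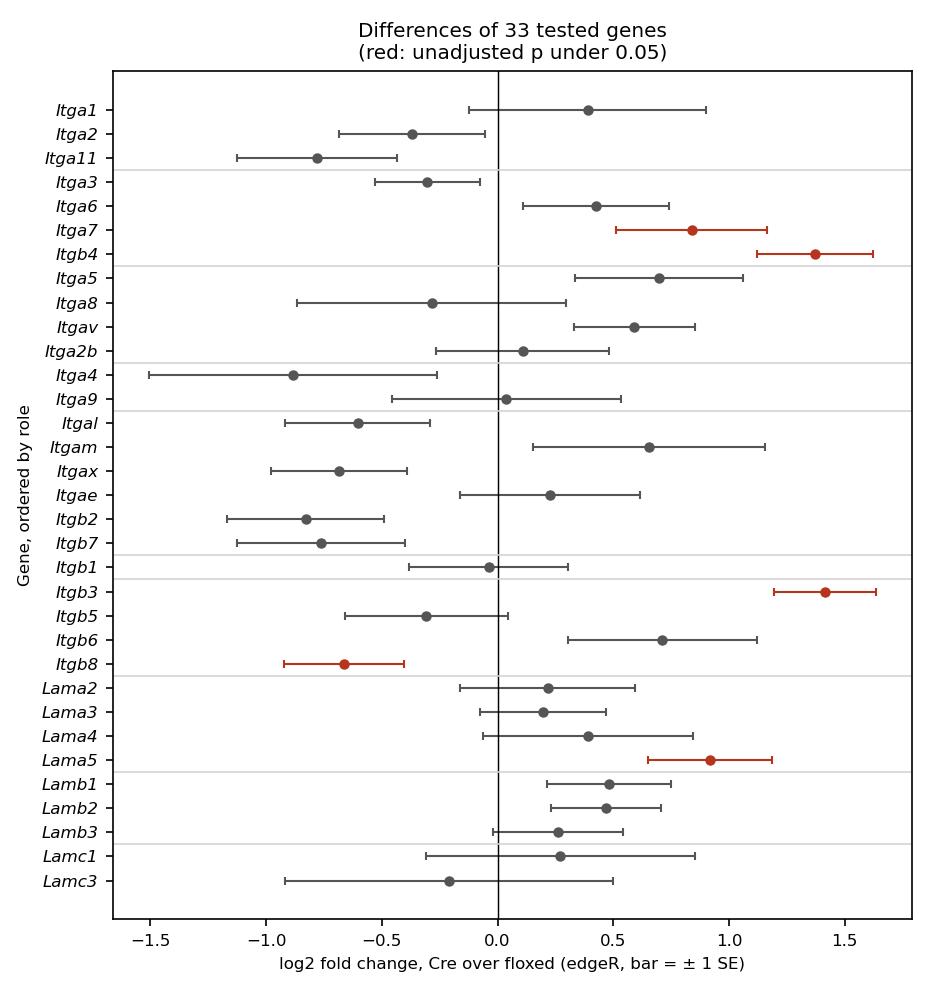
Log2 fold change of 33 of the 34 tested genes, libraries labelled Cre over those labelled floxed, with bars of 1 standard error from edgeR and lines between roles. The 5 genes in red have an unadjusted p under 0.05, with Itgb3 (1.42) and Itgb4 (1.37) farthest to the right, and none passed after adjustment.

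Among the laminin-binding integrins, Itgb4 was higher in both libraries labelled Cre. Itgb4 encodes the beta chain that pairs with alpha-6 and anchors epithelial cells to the basement membrane in hemidesmosomes, where its long tail binds plectin. It stood at 5.24 and 6.51 FPKM in floxed 1 and floxed 2 and at 16.8 and 13.8 in Cre 1 and Cre 2. The lower Cre library was above the higher floxed library, and the gap between groups was larger than that within either pair. The fold change was 2.59 (log2 1.37 ± 0.25 SE, unadjusted p 0.00244, adjusted p 0.141 in edgeR). Its unadjusted p was under 0.05 in 12 of 12 alternative settings, and its adjusted p in 4 of 12, ranging from 1.04e-05 without floxed replicate 2 to 0.919 without Cre replicate 1 (0.000974 with DESeq2). The gene spans 115974709 to 116008412 on chromosome 11 (GRCm38, plus strand). An antisense gene, B230344G16Rik, covers 7.66% of its exon bases, where reads are uncertain.

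Itga6, the partner of Itgb4, stood at 30.8 and 17.5 FPKM in the floxed pair and at 31.8 and 32.7 in the Cre pair (log2 fold change 0.43 ± 0.32, adjusted p 0.583 in edgeR). Floxed 1 was close to both Cre libraries and only floxed 2 was apart. The ratio of Itgb4 to Itga6 FPKM was 0.170 and 0.372 in the floxed pair and 0.530 and 0.421 in the Cre pair, without overlap, a difference of 0.205 that was 0.104 without floxed replicate 1. By exact permutation, two-sided, such a difference has p = 0.333, the smallest that 2 against 2 libraries allow, here and for every ratio and sum below whose groups do not overlap.

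Markers of other cell types that use Itgb4 were read beside it. Of 6 markers of basal or squamous epithelium (Krt5, Krt14, Krt15, Trp63, Dsg3 and Krt6a) the summed level was 1.56 and 0.799 FPKM in the floxed pair, 21.2 in Cre 1 and 1.35 in Cre 2, and Krt6a was at 0 in both floxed libraries. The sum in Cre 1 came from Krt5 (418 counts, against 9 in Cre 2), Krt14 (236 against 8) and Krt15 (151 against 13), while Trp63 had 49, 53, 36 and 36 counts over the 4 libraries and Dsg3 had 21, 10, 11 and 17. The log2 fold change of Itgb4 without Cre replicate 1 was 1.21, and the part of these cells in the result was not tested. The 6 Schwann cell markers summed to 4.70 and 5.77 FPKM in the floxed pair and to 10.3 and 8.90 in the Cre pair, and their part in the result was not tested. Uterine epithelial markers overlapped, at 912 and 1525 against 1265 and 1090 FPKM.

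Itga7, the laminin receptor chain of muscle, stood at 3.09 and 1.92 FPKM in the floxed pair and at 5.27 and 3.63 in the Cre pair. All Cre values were above the floxed ones, but Cre 2 was nearer to floxed 1 than to Cre 1. The fold change was 1.79 (log2 0.84 ± 0.33, unadjusted p 0.0478, adjusted p 0.354 in edgeR), and the log2 value was 0.57 without floxed replicate 2 and 0.54 without Cre replicate 1. Its unadjusted p was under 0.05 in 6 of 11 alternatives, and not with total count scaling, in either limma fit or without either Cre library. The gene spans 128933818 to 128958282 on chromosome 10 (plus strand). Smooth muscle markers were higher in the same libraries, and 4 of 9 had an unadjusted p under 0.05 in that direction and 0 in the other. Per 1000 FPKM of these markers, Itga7 was 1.67 and 1.22 in the floxed pair and 1.79 and 1.38 in the Cre pair, and the groups overlapped. Itga3, a laminin receptor chain of epithelium, was at 15.7 and 11.4 against 11.6 and 10.3 FPKM (log2 fold change -0.30 ± 0.23).

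Of the beta chains that pair with alpha-v, Itgb3 was higher and Itgb8 lower in the libraries labelled Cre. Itgb3 encodes the beta chain of the vitronectin receptor and, with Itga2b, of the platelet fibrinogen receptor. It stood at 4.40 and 3.89 FPKM in the floxed pair and at 12.3 and 9.78 in the Cre pair, far outside the spread within either. The fold change was 2.67 (log2 1.42 ± 0.22), with an unadjusted p of 0.00113 and an adjusted p of 0.111 in edgeR. Its unadjusted p was under 0.05 in 12 of 12 alternative settings, and its adjusted p in 4 of 12, ranging from 6.35e-05 without floxed replicate 1 to 0.869 without Cre replicate 1 (0.000214 with DESeq2). The gene spans 104608000 to 104670476 on chromosome 11 (GRCm38, plus strand), and no other annotated gene overlaps its exons.

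Itgb8, a beta chain known for activating latent TGF-beta and lacking the usual talin-binding tail, was at 4.42 and 5.77 FPKM in the floxed pair and at 2.87 and 3.60 in the Cre pair. The groups did not overlap, yet Cre 2 and floxed 1 lay close together. Its log2 fold change was -0.66 ± 0.26 (unadjusted p 0.0480, adjusted p 0.354 in edgeR), and -0.41 without floxed replicate 2. Its unadjusted p was under 0.05 in 5 of 11 alternatives, and not with DESeq2, in either limma fit, without floxed replicate 2 or without either Cre library. The gene spans 119158022 to 119238802 on chromosome 12 (minus strand). Itgb6, the epithelial chain that also activates latent TGF-beta, was low, at 1.09 and 1.89 against 2.05 and 2.88 FPKM (log2 fold change 0.71 ± 0.41, adjusted p 0.492), and 0.33 without floxed replicate 1.

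Itgb5, the second most abundant integrin, had 40.8 and 70.9 FPKM in the floxed pair and 48.3 and 42.9 in the Cre pair, so both Cre values lay between the floxed ones. Its log2 fold change of -0.31 became 0.20 without floxed replicate 2. The common alpha chain Itgav stood at 12.3 and 8.01 against 14.7 and 15.8 FPKM (log2 fold change 0.59 ± 0.26, adjusted p 0.399). An antisense gene covers 5.9% of its exon bases. The ratio of Itgb3 to Itgav was 0.357 and 0.486 in the floxed pair and 0.842 and 0.617 in the Cre pair, and that of Itgb8 to Itgav was 0.358 and 0.720 against 0.196 and 0.227.

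Within the summed FPKM of Itgb3, Itgb5, Itgb6 and Itgb8, the share of Itgb3 was 8.67% and 4.72% in the floxed pair and 18.8% and 16.5% in the Cre pair. Itgb8 made up 8.71% and 6.999% against 4.38% and 6.09%, and Itgb5 80.5% and 86.0% against 73.7% and 72.5%. The sum itself overlapped between groups, at 50.7 and 82.4 against 65.6 and 59.2 FPKM. Of 6 platelet markers 5 were found, summing to 10.2 and 16.6 FPKM in the floxed pair and to 17.5 and 18.2 in the Cre pair, without overlap. Pf4 made up nearly all of that sum, at 9.67 and 16.1 against 16.9 and 17.7 FPKM, and the part of platelets in the Itgb3 result was not tested. Itga2b, the platelet alpha chain, was at 1.23 and 1.70 against 1.78 and 1.41 FPKM (log2 fold change 0.11), and changed sign without floxed replicate 1 (-0.15) and without Cre replicate 1 (-0.077). The 8 endothelial markers, another known source of Itgb3, summed to 160 and 146 against 112 and 117 FPKM. By unadjusted p in edgeR 1 of them, Cldn5, was lower and 0 were higher. Kdr went the other way with overlap, at 9.15 and 4.75 against 8.94 and 8.63 FPKM (log2 fold change 0.35). The part of endothelial cells in the Itgb3 result was not tested.

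**Figure D3:**
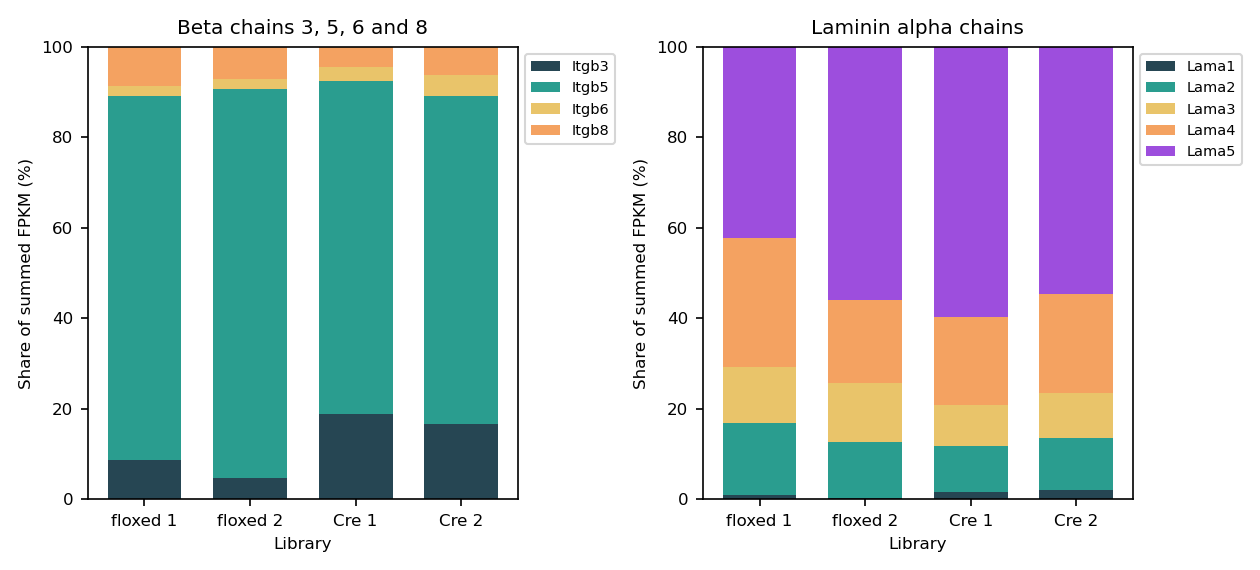
Share of the summed FPKM (percent, stacked to 100) taken by each of 4 beta chains (left) and by each laminin alpha chain (right) in each library. Itgb3 takes 4.72% to 8.67% in the floxed pair and 16.5% to 18.8% in the Cre pair, while Lama5 takes 42.2% to 56.0% and 54.6% to 59.7%, which overlap.

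Among the other matrix receptors no chain reached an unadjusted p under 0.05 in the main edgeR fit of 13513 genes. With no filter on low genes Itga5 was called higher and Itga4 lower at that cutoff, beside 7.92% and 7.41% of all genes. Itga5, the fibronectin receptor chain, stood at 21.2 and 10.4 FPKM in the floxed pair and at 28.0 and 22.7 in the Cre pair. Floxed 1 was close to Cre 2, and the log2 fold change of 0.70 ± 0.36 was 0.30 without floxed replicate 2 and 1.24 without floxed replicate 1. Itga8, a fibronectin and nephronectin receptor chain of mesenchyme and smooth muscle, had 6.87 and 1.86 against 3.18 and 3.88 FPKM, with both Cre values between the floxed ones. Its log2 fold change of -0.28 was 0.87 without floxed replicate 1.

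Itga4 and Itga9, receptor chains for VCAM1, fibronectin and tenascin, were also spread widest within the floxed pair. Itga4 stood at 4.69 and 1.18 FPKM there and at 1.34 and 1.79 in the Cre pair, and its log2 fold change of -0.88 was 0.36 without floxed replicate 1 and -1.55 without floxed replicate 2. Itga9 stood at 11.8 and 3.89 against 8.34 and 7.56, and its 0.038 ranged from -0.53, without floxed replicate 2, to 0.98, without floxed replicate 1, and became -0.045 without Cre replicate 1. Itgb1 itself was at 234 and 139 FPKM in the floxed pair and at 176 and 185 in the Cre pair, inside the floxed range (log2 fold change -0.039 ± 0.34, and 0.33 without floxed replicate 1).

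The 4 collagen receptor alpha chains summed to 13.8 and 12.9 FPKM in the floxed pair and to 12.2 and 12.7 in the Cre pair, just without overlap, and single chains differed from one another. Itga1, the chain of stroma and smooth muscle, was at 6.40 and 2.04 against 5.12 and 5.78 FPKM, and its log2 fold change of 0.39 was -0.19 without floxed replicate 2. Itga2, the chain of epithelium and platelets, was at 5.02 and 8.31 against 5.05 and 5.36, and its -0.37 was 0.091 without floxed replicate 2. Itga11, a fibroblast chain induced by TGF-beta in many settings, was at 1.87 and 2.10 FPKM in the floxed pair and at 1.29 and 1.03 in the Cre pair, without overlap (log2 fold change -0.78 ± 0.35, unadjusted p 0.0710, adjusted p 0.399 in edgeR). Itga10, a cartilage chain, ran from 0.456 to 0.729 FPKM over the 4 libraries.

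Of the 8 integrin chains of leukocytes, 6 were tested, and 4 of them were lower in each Cre library than in each floxed one. None of the 4 had an unadjusted p under 0.05 in the main edgeR fit. Of all genes tested, 23.6% were lower without overlap. With DESeq2 Itgb2 was under 0.05 unadjusted (adjusted p 0.301). With no filter on low genes Itgal, Itgb2 and Itgb7 were under 0.05 unadjusted in edgeR, where 7.41% of all genes were lower. There the edgeR adjusted p of Itgb2 was 0.0488. Itgb2, the beta chain shared by LFA-1 and Mac-1, stood at 21.4 and 10.9 FPKM in the floxed pair and at 8.43 and 9.64 in the Cre pair. Floxed 1 was far above the rest, and floxed 2 lay just above the Cre pair. The log2 fold change was -0.83 ± 0.34 (adjusted p 0.369 in edgeR, from 0.000102 to 0.9998 over 12 alternatives), -0.33 without floxed replicate 1 and -1.21 without floxed replicate 2. Itgal, the alpha chain of LFA-1, was at 6.61 and 3.68 against 3.35 and 3.38 FPKM, Itgax, a chain of dendritic cells and macrophages, at 4.61 and 3.19 against 2.30 and 2.54, and Itgb7, the chain of gut-homing lymphocytes, at 13.1 and 6.53 against 5.92 and 5.53. Their log2 fold changes were -0.60, -0.68 and -0.76, and without floxed replicate 1 they were -0.18, -0.45 and -0.24.

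These levels were read against 8 general leukocyte markers (Ptprc, Cd53, Lcp1, Laptm5, Coro1a, Lcp2, Vav1 and Cytip), of which 5 were lower by unadjusted p and 0 higher. The markers summed to 154 and 106 FPKM in the floxed pair and to 74.7 and 79.5 in the Cre pair, and the 8 integrins to 49.2 and 26.5 against 24.8 and 24.9. The difference in that sum, -13.0 FPKM, was -1.65 without floxed replicate 1 and -24.3 without floxed replicate 2. The ratio of the 2 sums, integrins to markers, was 0.318 and 0.249 in the floxed pair and 0.332 and 0.313 in the Cre pair, and the groups overlapped. Laptm5, the largest marker in the Cre pair, changed little, at 39.0 and 27.6 against 30.4 and 31.6 FPKM (log2 fold change -0.098). In bulk tissue, fewer cells of a type and less RNA per cell cannot be told apart. Single chains differed in their ratio to the marker sum. Itgax was 2.984% and 3.002% of the marker sum in the floxed pair and 3.077% and 3.199% in the Cre pair, and Itgb2 13.9% and 10.3% against 11.3% and 12.1%. Itgam was 1.58% and 0.885% against 4.04% and 2.83%, and Itgae 0.560% and 1.05% against 1.55% and 1.48%, both without overlap. For Itgal and Itgb7 the groups overlapped.

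**Figure D4:**
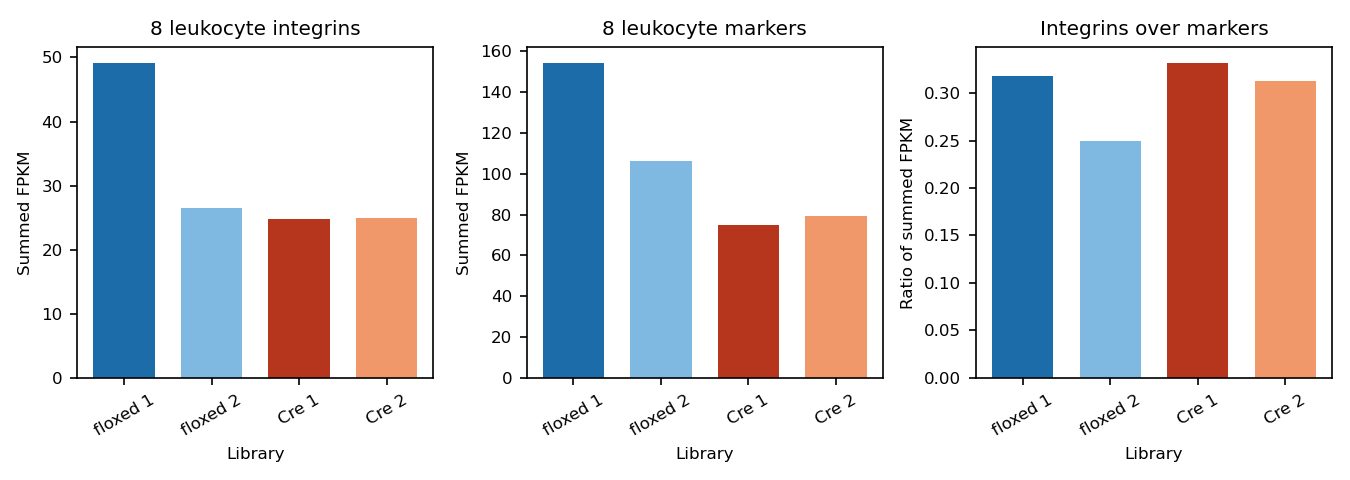
Summed FPKM of 8 leukocyte integrins (left), summed FPKM of 8 leukocyte markers (middle) and their ratio (right) in each library. Both sums are lower in the Cre pair than in either floxed library, while the ratio lies between 0.249 and 0.332 with the groups overlapping.

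Itgam, Itgae and Itgb2l did not share this direction. Itgam, the alpha chain of Mac-1 on neutrophils and macrophages, stood at 2.44 and 0.941 FPKM in the floxed pair and at 3.02 and 2.25 in the Cre pair, overlapping on CPM. Its log2 fold change was 0.66 ± 0.50, and 1.44 without floxed replicate 1 and 0.15 without floxed replicate 2. Its exon bases are shared to 68.7% with a gene model on the same strand, Gm49368, so its reads may be undercounted in every library. Neutrophil markers went the other way, with 5 of 6 lower at an unadjusted p under 0.05 and a sum of 201 and 168 FPKM in the floxed pair against 27.8 and 26.8. Macrophage markers summed to 507 and 301 against 245 and 196, with 4 of 7 lower and 1, Mrc1, higher. Itgae, the chain that lets lymphocytes bind epithelial cadherin, was at 0.866 and 1.12 against 1.16 and 1.18 FPKM (log2 fold change 0.23). The 8 markers of T and NK cells summed to 55.2 and 56.4 FPKM in the floxed pair and to 13.8 and 13.3 in the Cre pair. Of 7 tested, 6 were lower by unadjusted p in edgeR and 0 higher, with a median log2 fold change of -2.12. The part of these cells in the values of the lymphocyte chains was not tested.

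Itgb2l, a leukocyte beta chain related to Itgb2, was too low for the test, with 11 and 1 counts in the floxed pair and 43 and 27 in the Cre pair. Counts this low carry large counting error. With no filter on low genes its edgeR adjusted p was 0.0140. Itgad had 6, 7, 12 and 1 counts in the 4 libraries and allowed no comparison.

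Among the laminins, Lama5 was higher in both libraries labelled Cre. It encodes alpha-5, the most widespread laminin alpha chain of adult epithelium, vessels and smooth muscle, and the ligand of alpha-3 beta-1, alpha-6 beta-1 and alpha-6 beta-4 integrins. It stood at 19.96 and 15.2 FPKM in the floxed pair and at 36.7 and 29.6 in the Cre pair. Both Cre libraries were well above both floxed libraries. The fold change was 1.89 (log2 0.92 ± 0.27, unadjusted p 0.0178, adjusted p 0.261 in edgeR). Its unadjusted p was under 0.05 in 10 of 12 alternative settings, the exceptions being those without a Cre library, and its adjusted p ranged from 0.000934 to 0.9998 (0.0297 with DESeq2).

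The gene spans 180176373 to 180225859 on chromosome 2 (GRCm38, minus strand), and no other annotated gene overlaps its exons. Its promoter is shown because SMAD proteins, which Smad7 restrains, bind short motifs, and because no other member with an unadjusted p under 0.05 had a usable sequence. Itgb3, Itgb4 and Itga7 matched no promoter sequence, and that of Itgb8 overlapped the annotated gene. The sequence is from RefSeq on GRCm38.p6 and covers the 250 bases before the start, chr2:180225860-180226109, 5′ to 3′ on the minus strand. Capitals mark the letters CAGAC, found here once as GTCTG on the other strand, and GGCGCC, found once and reading the same on both strands, and the motifs do not overlap.
Lama5: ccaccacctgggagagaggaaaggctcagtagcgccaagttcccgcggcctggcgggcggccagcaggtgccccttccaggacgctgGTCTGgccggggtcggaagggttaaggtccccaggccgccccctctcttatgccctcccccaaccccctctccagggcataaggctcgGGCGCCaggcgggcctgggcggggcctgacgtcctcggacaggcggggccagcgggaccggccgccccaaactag

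Such letters are common. CAGAC on either strand occurs in 42.2% and GGCGCC in 9.59% of 32851 promoter windows of this length, and in 16 and 3 of the 27 windows that matched 24 of the 38 member genes. Many of the member windows overlap the annotated span of their own gene, at least in part, while that of Lama5 does not. GC content was 72.4% in the Lama5 window, with a median of 57.6% over the member windows and 52.4% over all. A match describes letters in a window and is not a binding site.

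The other laminin alpha chains followed the pair of floxed libraries more than the groups. Lama4, the chain of vessels and smooth muscle, stood at 13.5 and 4.99 FPKM in the floxed pair and at 12.02 and 11.93 in the Cre pair. Lama2, the chain of muscle and stroma, was at 7.47 and 3.37 against 6.21 and 6.27, and Lama3, an epithelial chain, at 5.95 and 3.56 against 5.54 and 5.29. In each of the 3, floxed 1 was the highest library and floxed 2 the lowest. Their log2 fold changes of 0.39, 0.22 and 0.20 were -0.13, -0.22 and -0.096 without floxed replicate 2. Lama1, an embryonic chain, was low, with 102 and 8 counts in the floxed pair and 188 and 184 in the Cre pair, or 0.459 and 0.0454 against 0.979 and 1.09 FPKM. It was outside the test, and with no filter on low genes its edgeR adjusted p was 0.00234. Mesothelial markers were higher in the same libraries as Lama1 and Lama5, summing to 39.4 and 23.0 FPKM against 64.6 and 47.4. Of these markers 5 of 6 were higher by unadjusted p. The other, Wt1, the largest in the floxed pair, overlapped at 23.98 and 12.4 against 14.9 and 18.9 FPKM (log2 fold change -0.094). Smooth muscle markers were also higher there, summing to 1855 and 1573 against 2940 and 2635 FPKM. Of these, 4 of 9 were higher by unadjusted p, with a median log2 fold change of 0.72. The part of either cell type in the Lama1 and Lama5 results was not tested.

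Lamb1 and Lamb2, the beta chains of most laminins, were somewhat higher in the Cre pair without overlap. Lamb1 stood at 24.8 and 17.1 against 30.8 and 27.4 FPKM (log2 fold change 0.48 ± 0.27, adjusted p 0.484), and Lamb2 at 29.3 and 22.8 against 38.4 and 33.6 (0.47 ± 0.24, adjusted p 0.45). Neither reached an unadjusted p under 0.05 in the main edgeR fit. The share of Lamb2 among the beta chains was even, at 49.1% and 49.8% in the floxed pair and 49.4% and 50.6% in the Cre pair. Lamb3, an epithelial beta chain, was at 5.65 and 5.97 against 8.53 and 5.43 FPKM, high in Cre 1 alone, and its log2 fold change of 0.26 was -0.11 without Cre replicate 1. Krt5, Krt14 and Krt15 were also highest in Cre 1, while Trp63 and Dsg3 were not, and their part in this was not tested.

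Lamc1 and Lamc3 showed a wide floxed spread. Lamc1, the common gamma chain, stood at 52.0 and 14.2 FPKM in the floxed pair and at 41.0 and 37.6 in the Cre pair, so the Cre values lay inside a floxed range of several fold. Its log2 fold change of 0.27 ± 0.58 was 1.41 without floxed replicate 1 and -0.36 without floxed replicate 2. Lamc3 behaved alike, at 4.46 and 0.911 against 2.59 and 1.97 FPKM, with -0.21 becoming 1.27 without floxed replicate 1 and -0.93 without floxed replicate 2. Summed laminin FPKM was 180 and 105 in the floxed pair and 199 and 175 in the Cre pair, and the groups overlapped.

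The members differed more within the floxed pair than within the Cre pair. Of 34 tested members 24 (70.6%) were lower in floxed 2 than in floxed 1, against 52.1% of all genes tested, and the median log2 ratio of floxed 2 to floxed 1 was -0.56 on CPM, against -0.030 over all genes. In 9 members (26.5%, against 19.5% of all genes) the pair differed more than 2-fold, and floxed 2 was the lower in each: Itga1, Itga4, Itga8, Itga9, Itgam, Lama2, Lama4, Lamc1 and Lamc3. In the Cre pair 0 of 34 members differed more than 2-fold, against 2.84% of all genes. Members that were higher in floxed 2 were fewer, among them Itgb5, Itgb6 and Itga2, whose log2 ratios were 0.89, 0.89 and 0.82. The sum of the uterine epithelial markers was also higher in floxed 2 (1525 against 912 FPKM). Among these markers Cdh1 (54.7 against 76.4 FPKM) and Foxa2 (2.64 against 3.82) went the other way. The part of epithelial cells in the higher levels of Itgb5, Itgb6 and Itga2 in floxed 2 was not tested.

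**Figure D5:**
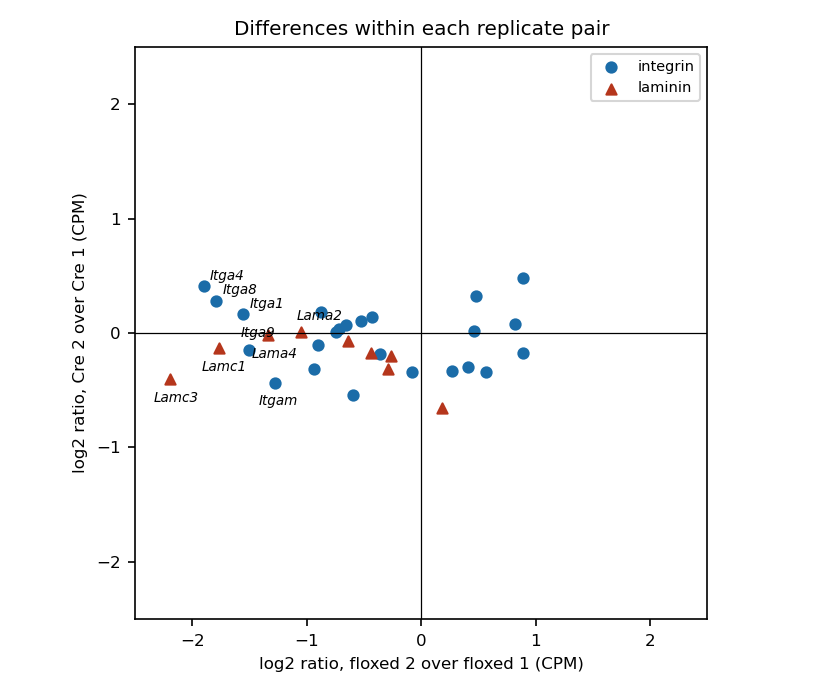
Log2 ratio of CPM within the floxed pair (horizontal) and within the Cre pair (vertical) for 33 of the 34 tested members, on equal axes, with the 9 members that differed more than 2-fold in the floxed pair named. Points spread from -2.19 to 0.89 along the horizontal axis and stay within 0.66 of 0 on the vertical axis.

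Genes that work with these chains were read from 3 lists. The background for each list was 13.9% of all genes tested called by unadjusted p in edgeR, 7.3% higher and 6.58% lower. Of 30 genes of focal adhesions and integrin activation 29 were tested, with 2 higher and 2 lower by unadjusted p and a median log2 fold change of 0.20. The lower ones were Fermt3, the kindlin of blood cells, at 4.84 and 3.35 against 2.08 and 1.75 FPKM, and Parvg, a parvin of blood cells named after its value was seen, at 3.75 and 2.24 against 1.49 and 1.15. The higher ones were Tns1, a tensin that ties integrins to actin, at 27.4 and 13.2 against 50.3 and 43.9, and Kank2, a talin-binding protein, at 32.1 and 25.4 against 50.2 and 42.6. The groups did not overlap in any of these 4 genes, as in 48.3% of all genes tested, and adjusted p-values in edgeR ran from 0.235 to 0.314. The number called in this list was near the background.

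Of 22 basement membrane partners of laminins 20 were tested, with 0 higher, 2 lower and a median log2 fold change of -0.38. All 22 summed to 918 and 481 FPKM in the floxed pair and to 622 and 499 in the Cre pair, and the groups overlapped. In Nid1 (152 and 40.9 against 52.8 and 48.9 FPKM) and Col4a1 (127 and 32.4 against 66.5 and 45.6), both Cre values lay between the floxed ones. The lower ones were Sdc4, a heparan sulfate co-receptor of integrins, at 66.5 and 114.6 against 37.7 and 33.4 FPKM (log2 fold change -1.36 ± 0.35), and Ntn4, a laminin-related protein that disrupts laminin networks, at 9.05 and 17.2 against 5.39 and 5.56 (-1.28 ± 0.38). Next in order of p was Ntn1, a guidance cue built on laminin domains, at 23.6 and 12.8 against 35.2 and 25.5 (0.75 ± 0.35). These medians stand beside -0.033 over all genes tested.

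Of 22 other integrin ligands 20 were tested, with 1 higher, 2 lower and a median of -0.42. All 22 summed to 593 and 300 FPKM in the floxed pair and to 367 and 362 in the Cre pair, and the groups overlapped. In Fn1 (139 and 26.6 against 59.6 and 62.9 FPKM) and Tnc (24.1 and 1.31 against 2.84 and 2.12), both Cre values lay between the floxed ones. Spp1, osteopontin, a ligand of alpha-v beta-3, stood at 36.5 and 18.7 FPKM in the floxed pair and at 3.30 and 3.44 in the Cre pair (log2 fold change -3.02 ± 0.37, adjusted p 0.0982 in edgeR). Every Cre value was far below every floxed value, the opposite direction to Itgb3. Icam1, a ligand of Itgal with Itgb2, was at 19.7 and 19.5 against 6.64 and 5.35 FPKM (-1.71 ± 0.22, adjusted p 0.0982 in edgeR). Itgal and Itgb2 had the same direction, but neither had an unadjusted p under 0.05 in the main edgeR fit. Ccn1, a matricellular ligand of several integrins, was at 12.2 and 4.93 against 35.4 and 24.05 (1.81 ± 0.46, adjusted p 0.219). None passed 0.05.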

How the data were processed

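The authors deposited whole-number read counts and FPKM per gene for each of the 4 libraries, per the file headers. HISAT2, HTSeq 0.13.5 and GRCm38 are named in the submitters' processing notes. The sources used here state no strand or overlap setting for the counting, so reads of overlapping genes are uncertain. Deposited FPKM equals count over gene length and total count (lengths equal within 1e-06 in 23463 of 23463 genes). GENCODE mouse release 21 gave positions and exon overlaps. Counts of the 13513 genes whose FPKM averaged 1 or more were TMM-scaled and tested by group alone with the quasi-likelihood method of edgeR 4.0.16 in R 4.3.3, two-sided, with Benjamini-Hochberg adjustment over all of them. The SE was taken as |log2 fold change| / √F. For CPM, TMM gave the library sizes, and 3 counts correspond to 0.128 to 0.173 CPM. Alternatives were DESeq2 1.42.0, limma 3.58.1 on log2(FPKM + 1) and log2(FPKM + 0.1), other filters and scalings, the replicate block, and each library left out. The procedure was tested on simulated data, with changes larger than that of any tested member, so that test does not cover changes of their size. Members, lists and roles were chosen with earlier results of these data known. For 1 of the 38 members, counted in the totals and medians, no values are reported here. By the naming rule, every other member was listed by role, with full values for members with an unadjusted p under 0.05 or a mean of at least 10 FPKM, and the 3 genes of smallest p from each list. Other members' values were added, and both values of a pair stand in place of a mean and SD.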

Additional observations from a re-analysis of the deposited data

How the results depend on the processing

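The directions of Itgb3, Itgb4, Lama5, Itga7 and Itgb8 were the same in all alternatives run, and 20 of 34 tested members kept 1 sign in all 4 fits without a library. Genes called at an adjusted p under 0.05 numbered 0 higher and 0 lower, but 995 and 933 with no filter (members 4 and 2), 438 and 405 with DESeq2 (members 3 and 0), and 1 higher with a filter of mean FPKM 5. Without 1 library they ran from 0 to 2364 higher and 0 to 1885 lower (members 0 to 18 and 0 to 7). By unadjusted p the main counts were 987 higher and 889 lower, against 2168 and 2030 with no filter (members 7 and 5), 541 and 520 with a filter of 5, and from 348 to 3016 and 270 to 2618 without 1 library (members 2 to 18 and 0 to 9). Members lower numbered 0 with a filter of 5, which leaves out Itgb8, and 0 in both limma fits, where 1 was lower in edgeR. Without 1 library the integrin median ran from -0.061 to 0.33 and the laminin median from -0.061 to 0.78. Signs also changed for Itga9 with no filter (-0.021), for Itgb1 with limma on log2(FPKM + 0.1) (0.00011), and for Lamc3 with limma on log2(FPKM + 1) (0.015), with log2(FPKM + 0.1) (0.14) and with the replicate block (0.14). Without 1 library the log2 fold changes of members that changed sign ran from -0.19 to 1.37 for Itga1, -0.72 to 0.091 for Itga2, -0.92 to 0.87 for Itga8, -0.15 to 0.41 for Itga2b, -1.55 to 0.36 for Itga4, -0.53 to 0.98 for Itga9, -0.34 to 0.33 for Itgb1, -0.69 to 0.20 for Itgb5, -0.22 to 0.84 for Lama2, -0.096 to 0.56 for Lama3, -0.13 to 1.21 for Lama4, -0.11 to 0.55 for Lamb3, -0.36 to 1.41 for Lamc1 and -0.93 to 1.27 for Lamc3. The cause was not tested. Replicate numbers are shared by the groups, but deviations of same-numbered libraries correlated at -0.083, so they are not taken as pairs, and with the block 868 genes were higher and 657 lower by unadjusted p, with the same 5 members among them. With median-of-ratios or total count scaling no member changed sign. Low counts limit what can be said of Itgad, Itgb2l, Itga10 and Lama1.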
